A study of Drosophila melanogaster with 4 samples.

Results

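Many genes begin transcription at more than 1 promoter. Where each promoter has a first exon of its own and the coding sequence (CDS) lies farther 3', the alternative transcripts encode the same protein and differ in their 5' untranslated region (5' UTR), the stretch between the cap and the start codon. Such promoters are known for giving a gene separate control in different cells or stages, and the 5' UTRs they make are known to affect how well a message is translated. In the testis, transcripts of spermatocytes and spermatids are known to start often at promoters of their own.

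The loci described here have alternative first exons that keep the CDS ends. A locus, meaning an identifier under which the authors grouped overlapping transcripts, was included when 2 of its spliced transcripts had the same first and the same last CDS base, first exons that did not overlap, and starts more than 500 bp apart. Of 9100 loci in the catalogue, 1477 met this rule (16.2%, 95% exact binomial interval 15.5 to 17.0). Counted over the 4269 loci that had 2 spliced transcripts with the same CDS ends, the share was 34.6%. The members were chosen by the measured positions of starts, first exons and CDS ends, so those values are a description and none was tested. The gene that holds the shared CDS could be named for 1376 of the 1477 loci.

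The catalogue was made by long-read sequencing (PacBio Iso-Seq, which reads whole polyadenylated transcripts) of Drosophila melanogaster testes. KmgKD males (2 samples, genotype bamGAL4/ KmgRNAi) carried an RNAi construct against kmg, a zinc-finger gene of spermatocytes, and control males (2 samples, genotype bamGAL4) carried the driver, which both groups share. The bam driver is known to be active in late spermatogonia, so the knockdown does not reach the somatic cells of the testis through it. In both groups 150 pairs of testes were taken per sample from males 0 to 2 days old that had developed at 29 °C after 3 days of egg laying at 25 °C. The authors merged all 4 samples into 1 annotation of 40180 transcripts, in which no line names a sample and no read number is given. No start can therefore be assigned to KmgKD or to control testes, depth is unknown, and every count below is a count of transcript models, for both groups together. As a check of the tissue, all 12 genes of a list of spermatocyte and spermatid markers were named in the catalogue. So were 7 of 8 markers of somatic cells and 3 of 5 of spermatogonia, so being named does not tell these cells apart. Coordinates are those of the deposited file, for which the submitters' processing notes name the builds BDGP6 and dm6.

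In what follows the pair of a locus is its 2 qualifying transcripts with the greatest distance between starts, and they are called the upstream and the downstream transcript. The pairs had 4 forms. In 297 loci (20.1%, interval 18.1 to 22.2) the downstream first exon was a separate exon in an intron of the upstream transcript, and both first exons were joined to the same splice acceptor, the base at which the next exon begins. In 178 loci (12.1%, 10.4 to 13.8) the first exons were separate but were joined to different acceptors. In 393 loci (26.6%, 24.4 to 28.9) the downstream transcript started in an intron of the upstream one and its first exon ran on into an exon of that transcript. In the remaining 609 loci (41.2%, 38.7 to 43.8) the downstream start lay inside an internal exon of the upstream transcript. A cDNA that lost its 5' end would give this last form too, and whether that happened was not tested.

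Of the genes with textbook alternative promoters, dpp and Act5C show the first form. In dpp, which encodes a BMP ligand and lies on 2L (plus strand), 4 transcripts shared the CDS from 2455470 to 2458560. They started at 2428372, at 2451238 and 2451241, and at 2454739, and all 4 first exons were joined to the acceptor at 2455057. The 5' UTR was 1092 bp from the upstream start, 1590 and 1587 bp from the middle starts, and 583 bp from the downstream start, in front of 1 CDS of 1368 bp. Before the CDS the 3 start positions of dpp thus differed in first exon alone, over a stretch of 26367 bp, while their 3' ends lay at 2459097, 2459630 and 2459785.

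Act5C, a gene for cytoplasmic actin on the X chromosome (plus strand), had the same layout over a shorter distance. Of 9 transcripts with the CDS from 5902698 to 5903828, 5 started between 5900761 and 5900867, and 4 started together at 5901995. All were joined to the acceptor at 5902690, which lies 8 bp before the CDS. The 5' UTR was 155 to 261 bp from the upstream starts and 110 bp from the downstream start. Antp, a homeotic gene on 3R (minus strand), has the third form, a start in an intron. Of its transcripts 3 transcripts started at 6999228 and 1 at 6910538, 88690 bp apart. Here the 5' UTR was 1611 bp with 4 introns in the upstream transcript of the pair and 475 bp with 1 intron in the downstream one. The CDS ends of Antp were the same but the CDS was 1125 bp upstream and 1086 bp downstream, so the proteins of this pair are not predicted to be identical. These 3 genes were on a list of 5 genes known for alternative promoters, and the other two, Adh and hb, were not named in the catalogue.

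**Figure D1:**
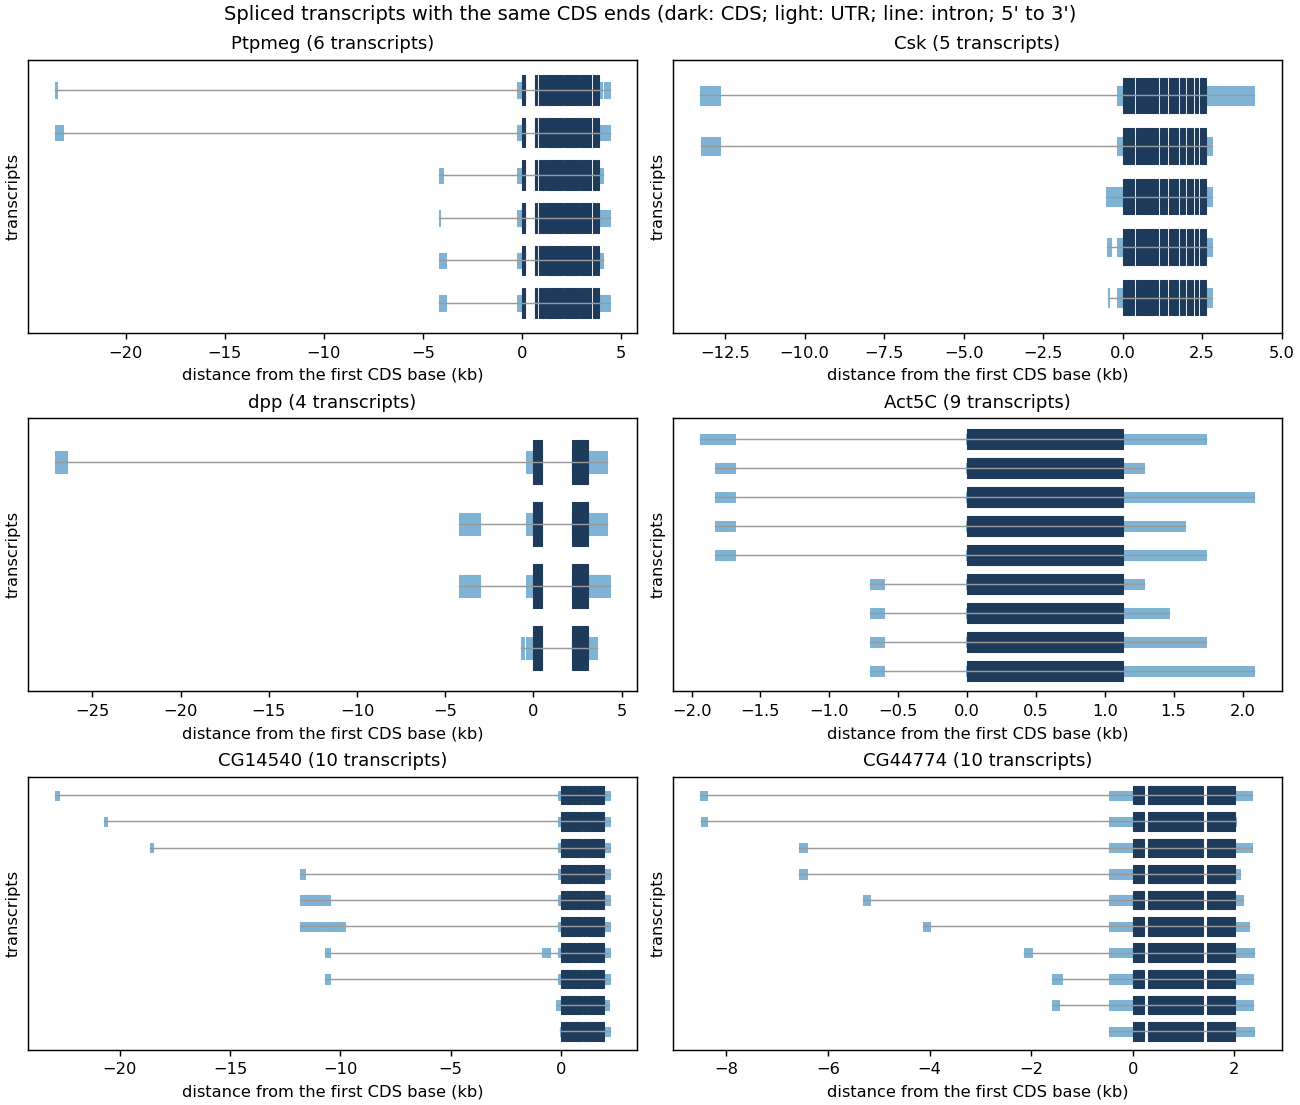
Transcripts with the same CDS ends in 6 loci, drawn from 5' to 3' against the distance from the first CDS base in kb, with 1 row per transcript (dark boxes CDS, light boxes UTR, lines introns). In dpp and Act5C all first exons are spliced to 1 place in front of the same CDS, as are 5 of 10 in CG14540 and 9 of 10 in CG44774. Another 3 rows of CG14540 hold further exons between, and the bottom rows of CG14540 and CG44774 hold starts in front of or inside the exon with the CDS start.

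Where the acceptor was shared, the first exon was nearly always all that differed before the CDS. In 290 of the 297 pairs (97.6%, interval 95.2 to 99.0) the 5' UTR after the acceptor was identical. In 267 (89.9%) each 5' UTR held 1 intron, so the exon that begins at the shared acceptor also held the shared CDS start. In those 267 the identity follows from the shared acceptor and CDS start, and only the other pairs could differ. The shared stretch from the acceptor to the CDS had a median of 75 bp, with quartiles of 22 and 197 bp. The upstream first intron had a median of 5287 bp and the downstream first intron 670 bp. The first exons themselves were 240 bp upstream and 150 bp downstream at the median.

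The widest such pairs with at least 2 transcripts at each start were in nyo, CG17528 and Ptpmeg. Starts within 100 bp were counted together, whichever acceptor the transcripts used. For nyo, a gene for a zona pellucida domain protein on 3R (plus strand), the starts of the pair lay at 31534352 and 31557649. Its 5' UTR was 77 bp from the upstream start and 369 bp from the downstream start, so the transcript with the farther start had the shorter leader. For CG17528 on 2R the starts were 22909 bp apart, with 5' UTRs of 226 and 194 bp from the upstream and the downstream start. Other CG17528 transcripts on the same acceptor, from 4824275 and 4824316, had 338 and 413 bp, so here too the order depends on the transcript taken. Ptpmeg, a protein tyrosine phosphatase gene on 3L (plus strand), had 2 transcripts from 328084 and 4 from 347463 and 347467. All 6 used the acceptor at 351367 and the CDS of 2925 bp that begins at 351626. The 6 first exons ended at 5 different donors, so that the 5' UTR ran from 343 to 644 bp upstream and from 296 to 572 bp downstream, and the ranges overlapped.

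Psa, an aminopeptidase gene on 3L, followed with 15137 bp between starts and 5' UTRs of 741 bp upstream and 579 bp downstream. Another Psa transcript from the upstream side, at 1502758, had 603 bp on the same acceptor. Those from 1517779 on that acceptor had 675 and 771 bp, so the order of the Psa lengths depends on which transcripts are taken. For lbk on 2R the distance was 12979 bp, with 1083 bp upstream and 322 bp downstream. Csk encodes a kinase that restrains Src kinases and lies on 3R (minus strand). Its upstream transcripts started at 11650710 and 11650698, with 5' UTRs of 814 and 802 bp. The downstream transcripts joined to the same acceptor, at 11637614, started at 11637912 and 11637881 and had 310 and 229 bp. In Csk the leaders of the upstream and downstream groups did not overlap in length. The CDS of 2172 bp in these transcripts is not the longest that ends at this base, which is 3159 bp, and the same holds for Psa (2601 bp against 3228 bp) and CG17528 (2247 bp against 2295 bp).

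CAH14, a carbonic anhydrase gene (12075 bp), CG4928 on the X chromosome (11959 bp), Akap200, a gene for an anchor of protein kinase A (11033 bp), and hdly (10912 bp) completed the 10 widest. In each of these the upstream 5' UTR was the longer one. The shortest was in hdly, with 133 bp upstream and 45 bp downstream, and the largest in CG4928, with 1119 bp upstream and 258 bp downstream. Of the 10 loci Akap200 had the most transcripts at both starts, with 6 transcripts at the upstream start and 5 at the downstream one. These Akap200 transcripts shared the CDS ends but not the CDS, which was 1119, 2262 or 2514 bp at the upstream start and 1119 or 2262 bp at the downstream one. At the downstream start, only the Akap200 transcripts with a 5' UTR of 85 bp were joined to the shared acceptor, at 8426874. Those with 154 or 165 bp ran on past it and had no 5' UTR intron.

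Some acceptors served more than 2 starts. Starts were counted as separate when they lay over 500 bp apart and their first exons did not overlap. In 584 loci at least 2 separate starts were joined to 1 acceptor in front of the same CDS ends, in 105 loci at least 3, and 2 loci reached 6. One of these was CG44774 on the X chromosome (minus strand), where 9 transcripts were joined to the acceptor at 4930065. Their starts ran from 4938114 through 4936162, 4934917, 4933734 and 4931736 to 4931190. The 5' UTR was between 593 and 656 bp in all 9. Most of that length was the same stretch of 464 bp from the acceptor to the CDS, and only the first exons differed. In 1 of the 9 the CDS was 1866 bp, and it was 1869 bp in the rest. Another transcript of CG44774 began at the acceptor base itself, 4930065, and had a 5' UTR of 464 bp.

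CG14540 on 3R (plus strand) has 1 RefSeq transcript. Here starts at 25936571, 25938779, 25940850, 25947638 and 25948775 were joined to the acceptor at 25959346, and the 5' UTR of these 5 forms was 308, 251, 279, 357 and 389 bp. Other transcripts from these starts were spliced otherwise, and the longest 5' UTR reached 2146 bp. The upstream start lay 22708 bp outside the annotated gene. vig, a gene for a subunit of the RNA-induced silencing complex on 2L (minus strand), had 5 separate starts on the acceptor at 15067689. From these its 5' UTR ranged from 88 to 1918 bp with the same CDS of 1473 bp. CG7236 and CG31523 also had 5 starts on 1 acceptor. In CG7236 the starts spanned 102751 bp, with a 5' UTR of 457 bp in the upstream transcript of the pair and 1348 bp in the downstream one. Another transcript of CG7236 on that acceptor, from 5710817 instead of 5710821, had 119 bp, so the order of the lengths depends on which downstream transcript is taken.

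Counted over all acceptors, 1172 loci had 2 separate starts, 249 had 3, 43 had 4, 6 had 5, 5 had 6 and 2 had 7. MEP-1, which encodes a zinc-finger partner of the Mi-2 remodelling ATPase, had 6, from 2628017 to 2635746 on 3L. Its 9 transcripts kept a CDS of 3459 bp behind 5' UTRs of 303 to 1155 bp with 1 to 4 introns. Hrb27C, an RNA-binding hnRNP gene on 2L, also had 6. Its 27 transcripts with the same CDS of 1266 bp started between 6913709 and 6923876, and their 5' UTRs ranged from 30 to 1313 bp. Mpi, a mannose-phosphate isomerase gene, had 6 with 5' UTRs of 39 to 2702 bp. Most of the Mpi starts lay upstream of the annotated gene, which begins at 9759622, and the farthest was 16121 bp outside it. gish, a casein kinase gene, is listed with 6 as well, but the CDS of its pair was 339 bp while the longest CDS of the locus was 2070 bp, so that pair holds only a short reading frame of the locus.

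The distance between starts had a median of 2429 bp (95% interval for the median 2233 to 2653), with quartiles of 1125 and 7074 bp. In 483 loci (32.7%) it was over 5000 bp, in 278 (18.8%) over 10000 bp and in 7 over 100000 bp. The widest, at a locus without a gene name, was 183711 bp. By form, the median was 3461 bp for separate exons on a shared acceptor and 7990 bp for separate exons on different acceptors. It was 2330 bp for starts in an intron whose exon ran on, and 1678 bp for starts inside an exon. The pairs nearest the limit were mesh (506 bp), Den1 (507 bp) and Spf45 (509 bp) inside it, and CG8746 (498 bp), CG3165 and Taf12 (497 bp each) outside it.

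**Figure D2:**
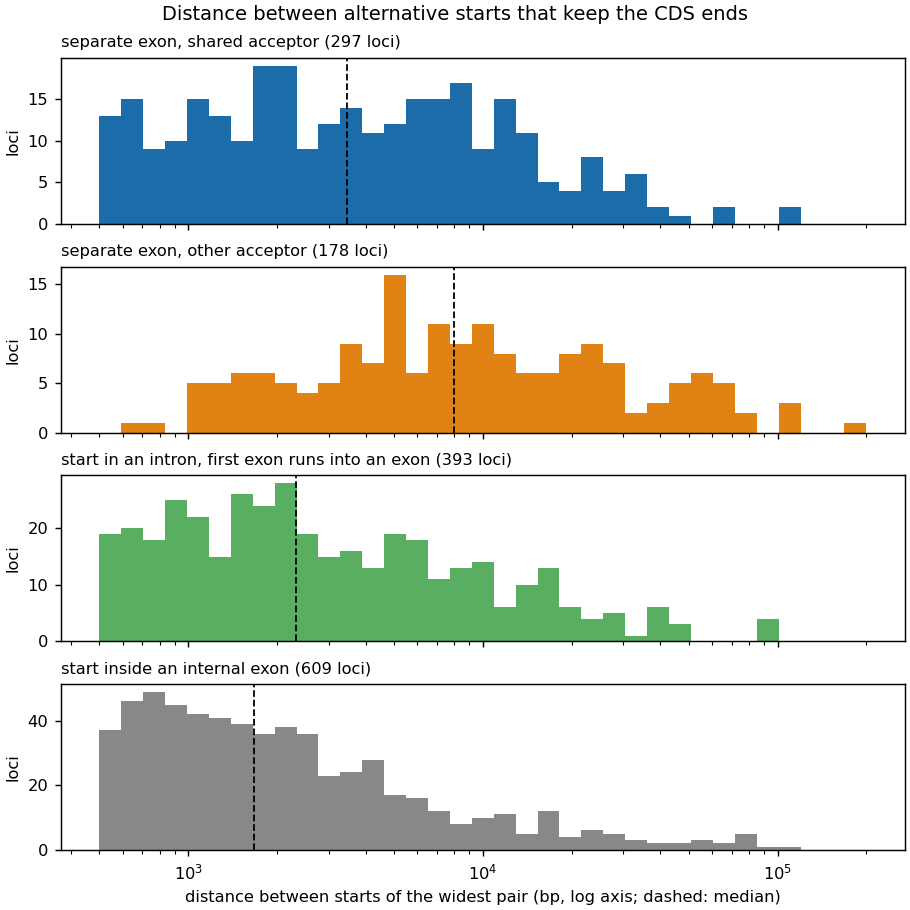
Number of loci by distance between the starts of the pair (bp, log axis), with 1 panel per form and a dashed line at the median. The medians run from 1678 bp for starts inside an exon to 7990 bp for separate exons on different acceptors, and no form has loci below 500 bp because of the rule.

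The named loci with the widest pairs fell into 2 kinds. In kek5, Pde1c and sm the upstream start lay inside the annotated gene or at its 5' end. kek5, a leucine-rich repeat receptor gene on the X chromosome, had 3 transcripts from 19353185 and 19353187 and 2 from 19462360 and 19462362, 109177 bp apart in the pair. Its 5' UTRs were 1083 to 1153 bp upstream and 604 to 695 bp downstream, so the ranges did not overlap, with 3 or 4 introns upstream and 1 downstream. In the other 7 the upstream start lay at least 93915 bp outside the annotated gene. These were CG6420, Fatp2, CG11334, Cnx99A, CG7236, primo-2 and CG10841.

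Fatp2, a fatty acid transport protein gene on 2R, is an example of the second kind. Its upstream first exon (22944653 to 22945188) was spliced over an intron of 113866 bp to the acceptor at 23059055, which was also used by the downstream first exon at 23058692. The 5' UTR was 548 bp upstream and 224 bp downstream, and the CDS of 2016 bp was the same. Each start of the Fatp2 pair had 1 transcript. Cnx99A, a gene for the endoplasmic reticulum chaperone calnexin, had 2 transcripts at its upstream start, 103663 bp outside the gene, and 3 at the downstream start, 49 bp inside its annotated 5' end.

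The 5' UTR was longer in the upstream transcript in 1280 of 1477 pairs (86.7%, interval 84.8 to 88.4). Its median was 606 bp from the upstream start (interval 577 to 643) and 160 bp from the downstream start (151 to 174). All spliced coding transcripts of the other loci, not picked by their start, had a median of 198 bp. With the nearest instead of the widest pair the medians were 557 bp upstream and 219 bp downstream, so the place of the downstream median relative to 198 bp depends on the pair taken. In the widest pairs the upstream 5' UTR exceeded 1000 bp in 404 loci (27.4%), against 60 loci (4.06%) for the downstream one. The lengths differed by over 500 bp in 616 loci (41.7%). The form of the pair bears on this directly. A start inside an exon of the upstream transcript usually leaves the shorter 5' UTR, and it did so in all 609 such loci, with medians of 825 bp upstream and 101 bp downstream. For separate exons on a shared acceptor the upstream 5' UTR was longer in 202 of 297 (68.0%, 62.4 to 73.3), with medians of 374 bp upstream and 278 bp downstream. In 62 of these 297 (20.9%) the lengths lay within 50 bp of each other.

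**Figure D3:**
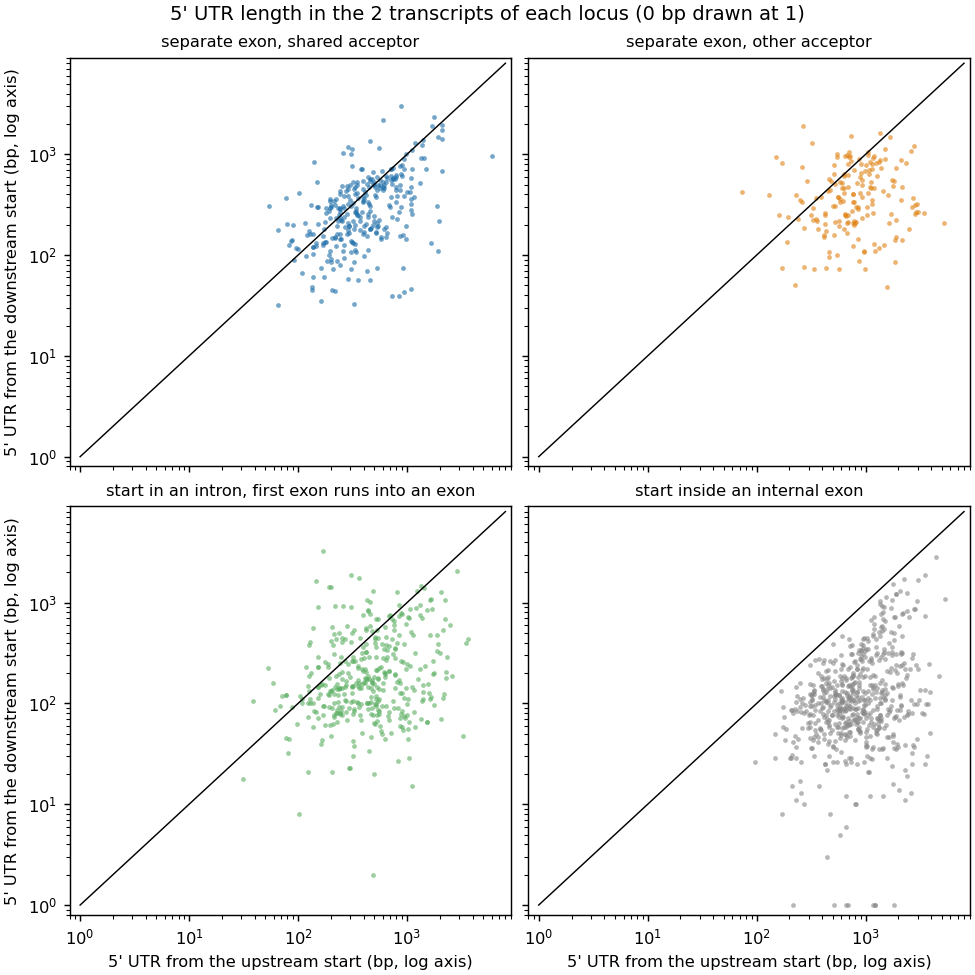
Length of the 5' UTR from the upstream start (horizontal, bp) and from the downstream start (vertical, bp) in the pair of each locus, on log axes, with 1 panel per form and a line of equal length, and the 5 downstream 5' UTRs of 0 bp drawn at 1 bp. All 609 points for starts inside an exon lie below the line, and so do 202 of the 297 points for separate exons on a shared acceptor, with the rest above it.

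The largest difference was in CG9795 on 3R, with a 5' UTR of 5283 bp with 7 introns upstream and 210 bp downstream, and 4 transcripts at the downstream start. The CDS of CG9795 was 1797 bp upstream and 1971 bp downstream. Opbp, a zinc-finger protein gene on 2R, had 5968 bp upstream and 971 bp downstream, and its upstream first exon alone was 5131 bp long. In Akr1B, an aldo-keto reductase gene, the lengths were 4669 bp upstream and 186 bp downstream, and in tld, a gene for a protease that frees Dpp from its inhibitor, 3641 bp upstream and 30 bp downstream. The CDS of the pair was shorter than the longest with that end in Akr1B (609 bp against 1053 bp), in tld (2694 bp against 3204 bp) and in CG5554 (507 bp against 993 bp). CG14692 had the most introns in an upstream 5' UTR (15). CG7335, CG5554, Pif1B, CG8773 and the nucleostemin-family gene Ns2 completed the 10, with 3605 to 3879 bp upstream and 51 to 247 bp downstream. Of the 10 genes, 8 had the downstream start inside an exon of the upstream transcript. In Ns2 that start was 30 bp inside the annotated 5' end, and in CG7335 41 bp before it. Except in CG14692, the upstream start of these genes lay inside the span of another protein-coding gene, on either strand. In all but CG14692 and Pif1B it lay 3053 bp (CG5554) to 11023 bp (CG9795) outside the gene named. The long upstream 5' UTRs of those loci thus begin outside the gene named. Whether they hold exons of another gene was not tested. Of the 1477 loci, 635 remained when all transcripts of a locus had to carry 1 gene name.

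Introns in the 5' UTR go with the same structure. Every upstream transcript has at least 1, because its first exon ends before the shared CDS start, while 305 had 2 and 249 had 3 or more. Of the downstream transcripts, 1 per locus, 875 (59.2%, interval 56.7 to 61.8) had none. Of all spliced coding transcripts of other loci, which were not picked by their start, 65.3% had none. In 149 loci (10.1%) the downstream 5' UTR was under 50 bp, and in 5 loci it was listed at 0 bp.

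Starts were then set against RefSeq gene spans, which give the outermost annotated 5' end and not each annotated promoter. In 418 of 1376 named loci (30.4%, interval 28.0 to 32.9) the upstream start was at most 100 bp from that end, as in dpp, Act5C, Ptpmeg and kek5. In all of these the downstream start lay over 100 bp inside the gene, which the rule of starts over 500 bp apart fixes. In 397 (28.9%, 26.5 to 31.3) the downstream start was the annotated one and the upstream start lay over 500 bp outside the gene. In 304 (22.1%) the upstream start was over 500 bp outside and the downstream start over 100 bp inside. Altogether 761 upstream starts lay over 500 bp outside the gene, by a median of 2583 bp. Of these, 593 (77.9%, interval 74.8 to 80.8) lay inside the span of another protein-coding gene, on either strand. In 94 (12.4%) the start was at most 100 bp from where another protein-coding gene of the same strand begins. In 95 (12.5%) it was at most 500 bp from where one of the opposite strand begins. The like shares for other starts or for the genome are not given here, so these counts do not show whether such places are more frequent among these starts.

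Gapdh2, a glycolytic enzyme gene on the X chromosome, shows a start at a neighbour. Its upstream transcript began at 15860136, within 100 bp of the annotated start of the G-protein subunit gene Gbeta13F, and was spliced over 8067 bp to the acceptor at 15868318. The downstream transcript began at 15868214, 69 bp inside the annotated 5' end. The 5' UTR was 133 bp upstream and 48 bp downstream, with 1 transcript at each start. The same held for ana2, a centriole gene (upstream start at the 5' end of MrgBP, 1249 bp upstream and 55 bp downstream), for fwd, a phosphatidylinositol 4-kinase gene (at CG32344, 2807 bp upstream and 1195 bp downstream), and for Mpi (at CG31415). In Hrb27C the upstream start was at most 500 bp from the annotated start of Wee1, on the opposite strand.

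Of the named loci, 354 belonged to genes with 1 RefSeq transcript. In them the upstream start lay over 500 bp outside the gene in 305 (86.2%, interval 82.1 to 89.6), against 456 of 1022 genes with several RefSeq transcripts (44.6%, 41.5 to 47.7). The downstream start was over 100 bp inside the gene in 29.4% and 79.6% of these groups. Genes with several transcripts can have more annotated starts inside their span, so the span alone does not show which starts are unannotated there, and the difference was not tested. lbk, with 1 RefSeq transcript, had its upstream start at the annotated base, while the downstream start of its pair, shared by 3 transcripts, lay 12979 bp inside.

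**Figure D4:**
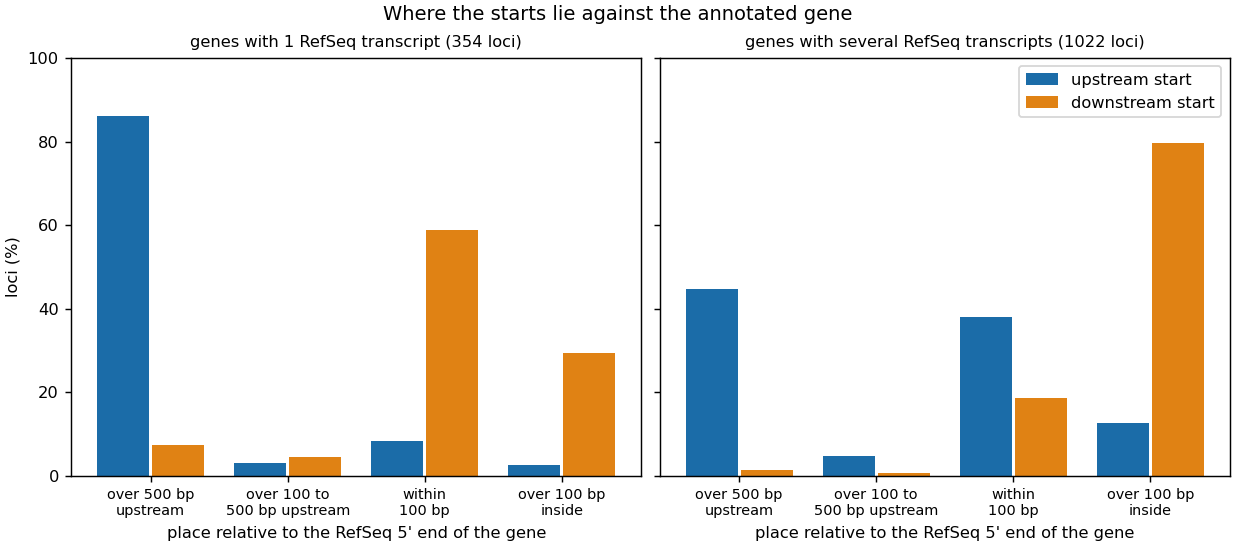
Percent of named loci with the upstream start (left bars) and the downstream start (right bars) in each place relative to the RefSeq 5' end, for 354 genes with 1 RefSeq transcript and 1022 genes with several. Upstream starts over 500 bp outside the gene make up 86.2% in the first panel and 44.6% in the second.

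Starts inside an exon were set against the annotation in the same way. In 241 of 570 named loci of this form (42.3%, interval 38.2 to 46.5) the downstream start was at most 100 bp from the annotated one. There the downstream transcript is the one with the annotated start, and the upstream transcript carries an added 5' part. The start lay a median of 168 bp past the acceptor of the exon that holds it, and within 10 bp of the acceptor in 34 of 609. At least 2 transcripts began at it in 32.3% of these loci, against 44.4% of the loci with separate exons on a shared acceptor. Over all forms, at least 2 transcripts began at the upstream start of the pair in 567 loci and at the downstream start in 561, and at both in 251 loci (17.0%).

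The genes of 9 lists of functions were then looked up, and 54 member loci carried such a name. Of all genes named in the catalogue, 15.3% were members, and the counts below can be read beside that share. They were not tested, and genes with more transcripts have more chances to qualify. In the list of Kmg, remodellers and chromatin, 2 of 15 named genes were members. One was MEP-1, described above. The other was Iswi, the ATPase of the ISWI remodellers, with an upstream start 2866 bp outside the gene, a downstream start 50 bp inside its 5' end, and 5' UTRs of 410 bp upstream and 222 bp downstream before a CDS of 3084 bp. Of the meiotic arrest genes and testis TAFs, 1 of 10 was a member, the homeodomain gene achi, with starts at 12515053 and 12514334 on 2R and 5' UTRs of 295 bp upstream and 90 bp downstream.

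Of the genes for RNA binding and translation, 9 of 20 were members. bru1, a translational repressor gene on 2L (plus strand), had 1 transcript at 12174979 and 7 around 12205928, joined to the acceptor at 12240868, with 5' UTRs of 351 bp upstream and 415 bp downstream. In bol, which is needed for entry into meiosis, 3 transcripts were at the upstream and 1 at the downstream start, 9180 bp apart, with 1203 bp upstream and 461 bp downstream. The initiation factor gene eIF4G2 of the testis had starts 562 bp apart with 6 transcripts at the upstream and 8 at the downstream one. Its 5' UTR was 1867 bp upstream and 478 bp downstream before a CDS of 6219 bp. orb, sm, bel, pum, qkr58E-1 and Hrb27C were the other members. In 6 of the 9 the CDS of the pair was shorter than the longest with that end, from bru1 (2433 bp against 2469 bp) to pum (1860 bp against 4602 bp).

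Of the genes for actin and membranes, 9 of 19 were members, and 8 of these had separate exons on a shared acceptor in some pair. Over all 1477 loci, 584 (39.5%) had such a pair. It was found in 5 of 9 members for RNA binding and translation and 3 of 8 for microtubules and centrosomes. For metabolism it was 5 of 7, for transcription regulators 4 of 7, for remodellers and chromatin 1 of 2, and for meiotic arrest 1 of 1. chic, the profilin gene, had 5 transcripts at each start and 5' UTRs of 214 bp upstream and 341 bp downstream. For the myosin genes the upstream leader was longer, with 483 bp upstream and 200 bp downstream in sqh (regulatory light chain), and 520 bp upstream and 164 bp downstream in zip (heavy chain). The CDS of zip was 5892 bp upstream and 5916 bp downstream. The moesin gene Moe had 239 bp upstream and 226 bp downstream, and alpha-Spec, a spectrin gene, 266 bp upstream and 294 bp downstream with a CDS of 7344 bp upstream and 7248 bp downstream. Rho1, fwd, Rab8 and Act5C were the others. Of the genes for microtubules and centrosomes 8 of 20 were members. polo, a mitotic kinase gene, had its upstream start 6449 bp outside the gene, with 2258 bp upstream and 251 bp downstream. betaTub56D (346 bp upstream, 531 bp downstream), Klp10A, msps, sub, Sas-4, ana1 and ana2 made up the rest.

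Of the genes for kinases, phosphatases and signalling, 9 of 25 were members, 8 of them with separate exons on a shared acceptor in some pair. Stat92E, the transcription factor of the JAK/STAT pathway on 3R, had starts 8008 bp apart and 5' UTRs of 513 bp upstream and 394 bp downstream. In sgg, the glycogen synthase kinase gene, the starts were 12135 bp apart, with 437 bp upstream and 254 bp downstream, and in arm, the beta-catenin gene, 1434 bp apart, with 176 bp upstream and 135 bp downstream. For 14-3-3zeta 5 transcripts were at the upstream and 6 at the downstream start, with 152 bp upstream and 203 bp downstream. CkIalpha (661 bp upstream, 164 bp downstream), dco, Pka-R1, Pka-R2 and gish were the other members. Among metabolic genes 7 of 15 were members: Ogdh, Gapdh2, Idh, Desat1, Acsl, Pdhb and the chaperone gene Hsc70-4. In Ogdh the downstream 5' UTR was the longer one, with 700 bp upstream and 946 bp downstream, and the CDS of its pair was 2376 bp where the longest with that end was 3345 bp. Desat1, a fatty acid desaturase gene, had 4 separate starts on 1 acceptor.

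Among transcription regulators 7 of 16 were members. chinmo, a gene for a BTB zinc-finger protein, had 2 transcripts at 1651260 and 4 near 1690104 on 2L, with 5' UTRs of 2133 bp upstream and 534 bp downstream and the same CDS of 1815 bp. lola had starts 8183 bp apart with 602 bp upstream and 474 bp downstream. Max, the partner of Myc, had 700 bp upstream and 153 bp downstream, and ken 1020 bp upstream and 110 bp downstream. In cnc, so and srp the CDS of the pair was shorter than the longest with that end, as in so, where it was 366 bp against 1251 bp. Of the marker lists, 1 of 7 somatic genes (so), 0 of 3 spermatogonial genes and 1 of 12 spermatocyte and spermatid genes (bol) were members.

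The same CDS ends did not always mean the same CDS. All CDS parts were identical in 1366 pairs (92.5%, interval 91.0 to 93.8). In the other 111 the pair differed inside the CDS, by a median of 54 bp. In 14-3-3zeta the CDS was 747 bp in both transcripts but used other parts. Pde1c, a phosphodiesterase gene, had 2505 bp upstream and 1950 bp downstream. The CDS of the pair was the longest one with its last base in 1083 loci (73.3%, 71.0 to 75.6), and in 51 (3.45%) it was under 50% of the longest. The 3' ends of the pair lay within 50 bp of each other in 1007 loci (68.2%).

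Separate starts can also shorten the CDS. With the same distance and exon rules and the same last CDS base, 2047 loci had a pair in which the downstream transcript began its CDS at another base and had a shorter one. Of the 1477 loci, 844 were also among these (57.1%), and they made up 41.2% of the 2047. In the pairs that kept the CDS ends the distance between starts had a median of 2429 bp, against 3761 bp in those that shortened it. The downstream first exon was free of upstream exons in 32.2% against 20.6%, and the first acceptor was shared in 20.1% against 4.79%. A downstream start past the CDS start cannot keep it, so the rules themselves bear on these differences, and they were not tested.

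How often a locus qualified went with its number of transcripts. The 1477 loci had a median of 8 transcripts, against 5 in the 2792 other loci with 2 spliced transcripts of the same CDS ends. The shares below are over the 4269 loci with 2 spliced transcripts of the same CDS ends. By number of spliced coding transcripts, the share that qualified was 10.9% with 2, 24.7% with 3 to 5 and 42.7% with 6 to 10. It was 64.5% with 11 to 20 and 85.9% with more. On the X chromosome 141 of 604 loci qualified (23.3%), against 1336 of 3665 on chromosomes 2 and 3 (36.5%). Loci of the X chromosome had a median of 4 spliced coding transcripts, against 5 or 6 on the arms of chromosomes 2 and 3. Among loci with up to 20 transcripts the share was lower on X in each class of transcript number, and above 20 all 4 loci of X qualified. Within each class the intervals of X and of chromosomes 2 and 3 overlapped. With 3 to 5 transcripts, for example, the shares were 20.6% (16.0 to 25.8) on X and 25.6% (23.3 to 27.9) on chromosomes 2 and 3. Loci are not replicates, and no test was made.

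**Figure D5:**
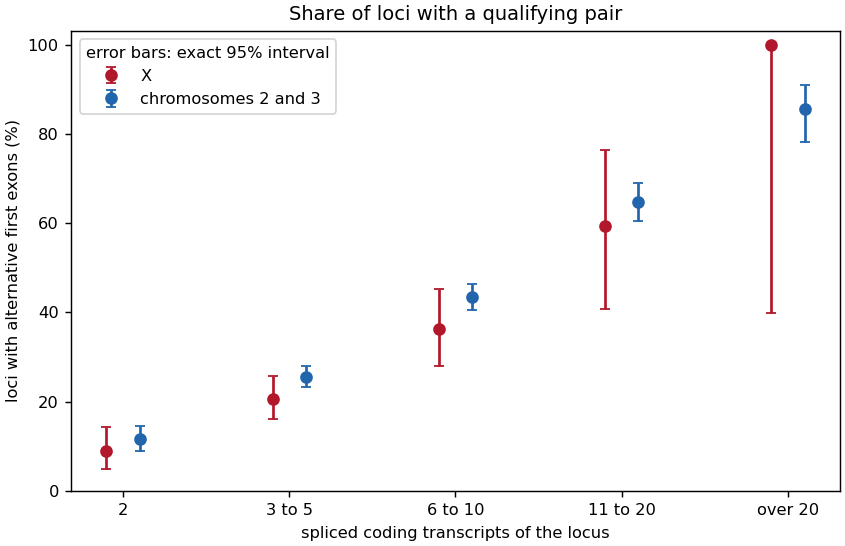
Percent of loci with 2 spliced transcripts of the same CDS ends that had a qualifying pair (vertical), by number of spliced coding transcripts (horizontal). Values are given for the X chromosome and for chromosomes 2 and 3, with exact 95% intervals as error bars. The share is higher in each class with more transcripts, and the intervals of both chromosome groups overlap in each class.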

How the data were processed

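The authors deposited 1 annotation of transcripts, exons and CDS parts as genome positions in bp, merged over 2 KmgKD and 2 control samples. The name under which it was deposited records merging of models by TAMA, a correction, filtering (in part with tappAS) and the adding of CDS. The aligner, like all settings, is not given in the sources used here. Merging and filtering set which starts can be seen, and no read number is held, so depth and replicate spread are unknown.

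Starts, donors, acceptors, 5' UTR lengths (exonic bases before the first CDS base) and pairs were computed with Python 3.11.15, numpy 2.4.6 and pandas 2.3.3, and exact binomial (Clopper-Pearson) intervals with scipy 1.17.1. Intervals cover counting error only. Intervals of medians are binomial order-statistic intervals. The steps were tested on simulated loci. The RefSeq table (Release 6 plus ISO1 MT) gives no strand. A gene took the strand of transcripts with an end within 200 bp of its own, where 80% of them had 1 strand. A pair was named by the protein-coding gene of its strand that held at least 80% of its CDS span.

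The named loci are the 10 widest, the 10 with the largest 5' UTR difference, the 10 with the most starts, the 3 on each side of the limit, the 10 widest with separate exons, a shared acceptor and 2 transcripts at each start, and members of the lists. The 6 loci drawn as transcripts were picked after their values were seen. Members and lists were chosen with earlier results of these data known. Sequences were not used here.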

Additional observations from a re-analysis of the deposited data

How the results depend on the processing

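No paired analysis was possible because the merged annotation carries no sample, and for the same reason no replicate could be left out. The count of 1477 loci became 1757 with starts over 200 bp apart, 1161 over 1000 bp and 483 over 5000 bp. It was 398 where both starts needed at least 2 transcripts. It was 735 where the downstream first exon could overlap no exon of the upstream transcript, and 584 where such a pair also shared the acceptor. It was 656 where that exon could overlap none of any transcript that starts over 500 bp upstream. It was 635 for loci whose transcripts all carry 1 gene name, and 1449 with all CDS parts identical. After the data were seen, 2 limits were added: starts inside an exon left out (1070) and a CDS of at least 90% of the longest of the locus (1066).

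With the nearest instead of the widest pair, the median distance was 1365 bp, the median 5' UTR 557 bp upstream and 219 bp downstream, the share with a longer upstream 5' UTR 79.2%, and the share with a shared acceptor 25.4%. Over all qualifying pairs the median distance was 1930 bp. With the widest pair of separate exons on a shared acceptor, in 584 loci, these were 3083 bp, 396 bp upstream, 286 bp downstream and 68.8%. A shared acceptor occurred in any pair of 39.5% of the loci, and in 21.4% of pairs over 1000 bp apart. The upstream 5' UTR was the longer one at the median with the nearest pair and with separate exons on a shared acceptor. Support counts transcript models and not reads, so a start with 1 transcript may be frequent or rare.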
